A study of Mus musculus with 12 samples.

Results

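The p200 genes and the Schlafen genes are interferon-inducible families, each lying in a cluster of related genes on a mouse chromosome. The 10 genes described here are Ifi203, Ifi204, Ifi205, Ifi207 and Ifi209 of the p200 family and Slfn1, Slfn2, Slfn4, Slfn5 and Slfn8 of the Schlafen family, and every probe set annotated to 1 of them alone was taken. That gave 13 probe sets for 9 of the 10 genes, among 45037 probe sets tested and 18193 genes measured, since Ifi205 had only probe sets shared with relatives. The genes were proposed with results of these arrays already known, so their values are given as descriptions and without p-values.

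The data are 12 Affymetrix arrays of RNA from mouse astrocytes in culture, 3 arrays for each of 4 groups: adult cells on APdE9 sections, adult cells on wild-type sections, neonatal cells on APdE9 sections and neonatal cells on wild-type sections. All astrocytes carried enhanced green fluorescent protein (eGFP) and came from C57Bl/6j mice, either adults of 6 to 8 weeks or neonates (3 d in the sample labels, 2 days in the protocol), and all spent 22 h on a section of brain. The sections came from APdE9 mice or from wild-type littermates. APdE9 mice carry chimeric mouse and human APPSwe (amyloid precursor protein with the Swedish mutation) and PS1-dE9 (presenilin 1 lacking exon 9), each driven by the mouse prion protein promoter. The plated cells carried neither transgene as far as the labels say, so the genotype named is that of the section under them. Cells were detached with trypsin and picked by suction, and RNA was isolated from pools (n = 3 samples). The labels call the arrays of a group biological replicates. The spread between arrays is that between pools and may be partly technical. The adult cultures differed from the neonatal ones also in a Percoll step and in their medium (DMEM/F12 and G5 supplement, where neonatal cultures had DMEM), so that age, isolation and medium cannot be told apart.

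p200 proteins pair a pyrin domain, which binds other pyrin domains, with one or more HIN domains, which bind DNA, although some members lack one of these parts. Several act as sensors of DNA in the cytosol or nucleus, and others act on transcription and cell growth. Schlafen proteins share a core domain, to which the long members add a helicase-like part. They are best known from T cells and myeloid cells, where they act on growth, quiescence and maturation. Interferons switch on genes of both families through transcription factors that bind the interferon-stimulated response element in promoters.

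To show what the promoters of these genes share, each promoter window of RefSeq (build GRCm38.p6, 250 bases before to 50 after a start site) was searched on both strands for the core letters of that element, GAAANNGAAA. The core was in 3.44% of 32851 windows in the table. Of 4 p200 members with a window 3 held it, and of 8 p200 relatives 6 held it. Of 5 Schlafen members 2 held it, and of 4 Schlafen relatives 1. TTCNNNGAA, the core letters of the gamma-activated sequence, was in 8.30% of all windows, in no window of the members and in 1 of the relatives. Stretches of 50 bases are printed 5′ to 3′ along each gene, with 10 bases in capitals. The capitals are the match or, for Ifi209, which had none, the bases nearest to those of Ifi207. They are printed because the letters within the core turned out alike in most p200 genes that held it. The windows of Aim2 and Ifi202b, not printed, held no core.
Ifi207: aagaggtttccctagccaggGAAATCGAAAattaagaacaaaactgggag
Ifi205: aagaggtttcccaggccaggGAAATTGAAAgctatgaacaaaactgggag
Ifi203: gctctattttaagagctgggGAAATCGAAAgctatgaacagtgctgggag
Mndal: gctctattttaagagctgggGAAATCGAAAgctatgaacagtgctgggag
Ifi213: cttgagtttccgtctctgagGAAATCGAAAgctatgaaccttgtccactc
Ifi209: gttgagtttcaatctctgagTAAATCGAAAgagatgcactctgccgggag
These lie at chr1:173741821-173741870, chr1:174031860-174031909, chr1:173942498-173942547, chr1:173880194-173880243 and chr1:173599316-173599365, all on the minus strand, and at chr1:173630760-173630809 on the plus strand for Ifi209. The letters GAAATCGAAA were in 16 of the 32851 windows (0.0487%), and 7 of the 12 p200 genes with a window held them; these exact letters were searched for after the windows had been seen. Counted from 1 at the first base of GAAATCGAAA, Ifi205 has C6T. Ifi209 has G1T and so holds no match to the core in its window. The stretches of Ifi203 and Mndal were the same in 50 of 50 bases, and those of Ifi207 and Ifi205 in 44 of 50. A match is a description of the letters and not evidence of a bound site.

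The Schlafen windows are shown because Slfn8, which differed most between sections in adult cells, and Slfn4 and a probe set of Slfn1, which did so in neonatal cells, belong to genes that differ in these letters. Slfn8 and its neighbour Slfn9 held the core on the other strand, so that the capitals read TTTCGTTTTC, at chr11:83020829-83020878 and chr11:82991846-82991895 (minus strand). GAAAACGAAA, the same letters read on the opposite strand, were in 31 of 32851 windows (0.0944%), and 2 of the 9 Schlafen genes with a window held them. Slfn5 held GAAAAAGAAA at chr11:82951927-82951976 (plus strand). For Slfn4 and Slfn1 no core was found, and the 100 bases before the start site are printed, at chr11:83175086-83175185 and chr11:83116720-83116819 (plus strand).
Slfn8: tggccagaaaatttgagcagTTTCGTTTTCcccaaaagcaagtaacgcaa
Slfn9: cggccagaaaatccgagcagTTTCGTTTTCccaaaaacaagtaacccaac
Slfn5: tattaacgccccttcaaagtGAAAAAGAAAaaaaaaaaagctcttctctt
Slfn4: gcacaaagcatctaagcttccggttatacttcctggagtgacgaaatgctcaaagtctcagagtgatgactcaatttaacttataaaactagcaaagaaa
Slfn1: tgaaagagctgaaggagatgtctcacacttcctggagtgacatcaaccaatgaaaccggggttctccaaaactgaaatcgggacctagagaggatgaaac
Slfn9, which shares the capitals of Slfn8, differed by 0.11 ± 0.12 between sections in adult cells (log2 difference ± SE), where Slfn8 differed by 1.5 ± 0.18. No match in these windows says only that the letters are not there.

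Each deposited value, apart from 6 damaged ones, was a signal taken as log2 from which that probe set's median across all 12 arrays had been taken away, which leaves differences and no levels. Array medians lay between -0.0385 and 0.0341. Arrays of a group correlated between 0.515 and 0.844 over the centred values. With no levels, the labelled cell type could not be checked for presence of its defining markers. Their differences could be: the mean of 12 astrocyte markers lay between -0.66 and -0.63 in adult cells on APdE9 sections, -0.64 and -0.62 in adult cells on wild-type sections, 0.45 and 0.59 in neonatal cells on APdE9 sections and 0.91 and 0.97 in neonatal cells on wild-type sections. In arrays of bulk RNA, fewer cells of a type and less RNA per cell cannot be told apart.

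In adult astrocytes, 3 p200 genes (Ifi204, Ifi207 and Ifi209) and 2 Schlafen genes (Slfn8 and, by a small margin in the mean of its probe sets, Slfn5) were higher on APdE9 than on wild-type sections with no overlap between arrays. Ifi207, a p200 protein with a pyrin and a HIN domain, differed most, then Ifi204, a DNA sensor, then Ifi209 and Slfn8. Slfn1, Slfn4 and Ifi203 differed by 0.23 or less on the log2 scale. Over the 13 probe sets, 6 were higher with no overlap between groups and 0 were lower, where 17.2% of all 45037 probe sets were higher and 13.6% lower without overlap. The members' median log2 difference was 0.24, with 13 of 13 above 0, against 0.04 over all probe sets. Since the genes were chosen with this comparison known, nothing is read from these counts.

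Ifi207 was at 1.47, 0.69 and 0.04 in adult cells on APdE9 sections, against -2.33, -2.03 and -3.44 on wild-type sections. The lowest array on an APdE9 section thus lay more than 2 log2 units above the highest on a wild-type section, and the difference was 3.33 ± 0.45 (SE from limma, with n = 3 arrays in each group), or 10.1-fold. Ifi204 was at 0.28, -0.07 and -0.49 on APdE9 sections, against -2.95, -2.25 and -3.12 on wild-type sections, a difference of 2.68 ± 0.28 (6.41-fold). The groups did not overlap for either gene. Quantile normalization lowered the difference of Ifi204 to 1.94 (3.85-fold) and that of Ifi207 to 2.79 (6.91-fold).

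Ifi209, also known as Pyhin1, was measured by 2 probe sets that moved alike. The first was at -0.86, -0.64 and -0.67 in adult cells on APdE9 sections, against -2.23, -2.48 and -2.19 on wild-type sections, a difference of 1.58 ± 0.16 (2.99-fold). The second was at -0.70, -0.80 and -0.69 on APdE9 sections, against -2.22, -3.0 and -2.60 on wild-type sections, a difference of 1.88 ± 0.21. Arrays of each group lay close together and the groups did not overlap. Quantile normalization brought the first to 1.12 (2.17-fold).

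Ifi203, a nuclear p200 protein, gave a mixed picture. Its single-gene probe set was at 0.21, 0.08 and 0.06 in adult cells on APdE9 sections, against -0.06, 0.09 and 0.12 on wild-type sections, a difference of 0.07 ± 0.11 with overlapping groups. The 3 probe sets that Ifi203 shares with other genes or predicted copies were higher on APdE9 sections without overlap, by 0.73 ± 0.19, 1.03 ± 0.29 and 2.03 ± 0.28. Which of the genes under these probe sets carried the difference cannot be told apart. Ifi205, which has been linked to control of inflammasome genes, was covered only by a probe set shared with Ifi211 and by one shared with Mndal, Ifi211 and Ifi204. These were higher on APdE9 sections by 1.31 ± 0.21 and 1.36 ± 0.22, again without overlap. The genes of both families are near copies of each other in places, and binding of relatives' transcripts to a single-gene probe set was not tested.

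Among the Schlafen genes Slfn8, a long member studied in T cells, differed most between sections in adult cells. It was at 0.72, 1.19 and 1.36 on APdE9 sections, against -0.47, -0.18 and -0.58 on wild-type sections, a difference of 1.5 ± 0.18 (2.82-fold). Every array on an APdE9 section lay above every array on a wild-type section. Slfn2, a short member needed for the quiescence of T cells, was at -0.99, -0.65 and -0.22 on APdE9 sections, against -1.23, -0.71 and -1.55 on wild-type sections. These groups overlapped, and the difference of 0.54 ± 0.32 was under 2 SE.

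Slfn4, a member known from the maturation of myeloid cells, was at -0.63, -0.33 and -0.63 in adult cells on APdE9 sections, against -0.83, -0.94 and -0.50 on wild-type sections. The arrays overlapped and the difference was 0.23 ± 0.24. The first probe set of Slfn1, a short member that slows T-cell growth, was at -0.63, -0.45 and -0.25 on APdE9 sections. It was at -0.31, -0.50 and -0.69 on wild-type sections, a difference of 0.06 ± 0.16. The second probe set of Slfn1 differed by 0.13 ± 0.08, and the groups overlapped for both. Slfn5, a long member, had 3 probe sets with differences of 0.08 ± 0.12, 0.20 ± 0.15 and 0.24 ± 0.11. Only the third of these did so without overlap, and the mean of the 3 differed by 0.17 ± 0.10 without overlap.

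**Figure D1:**
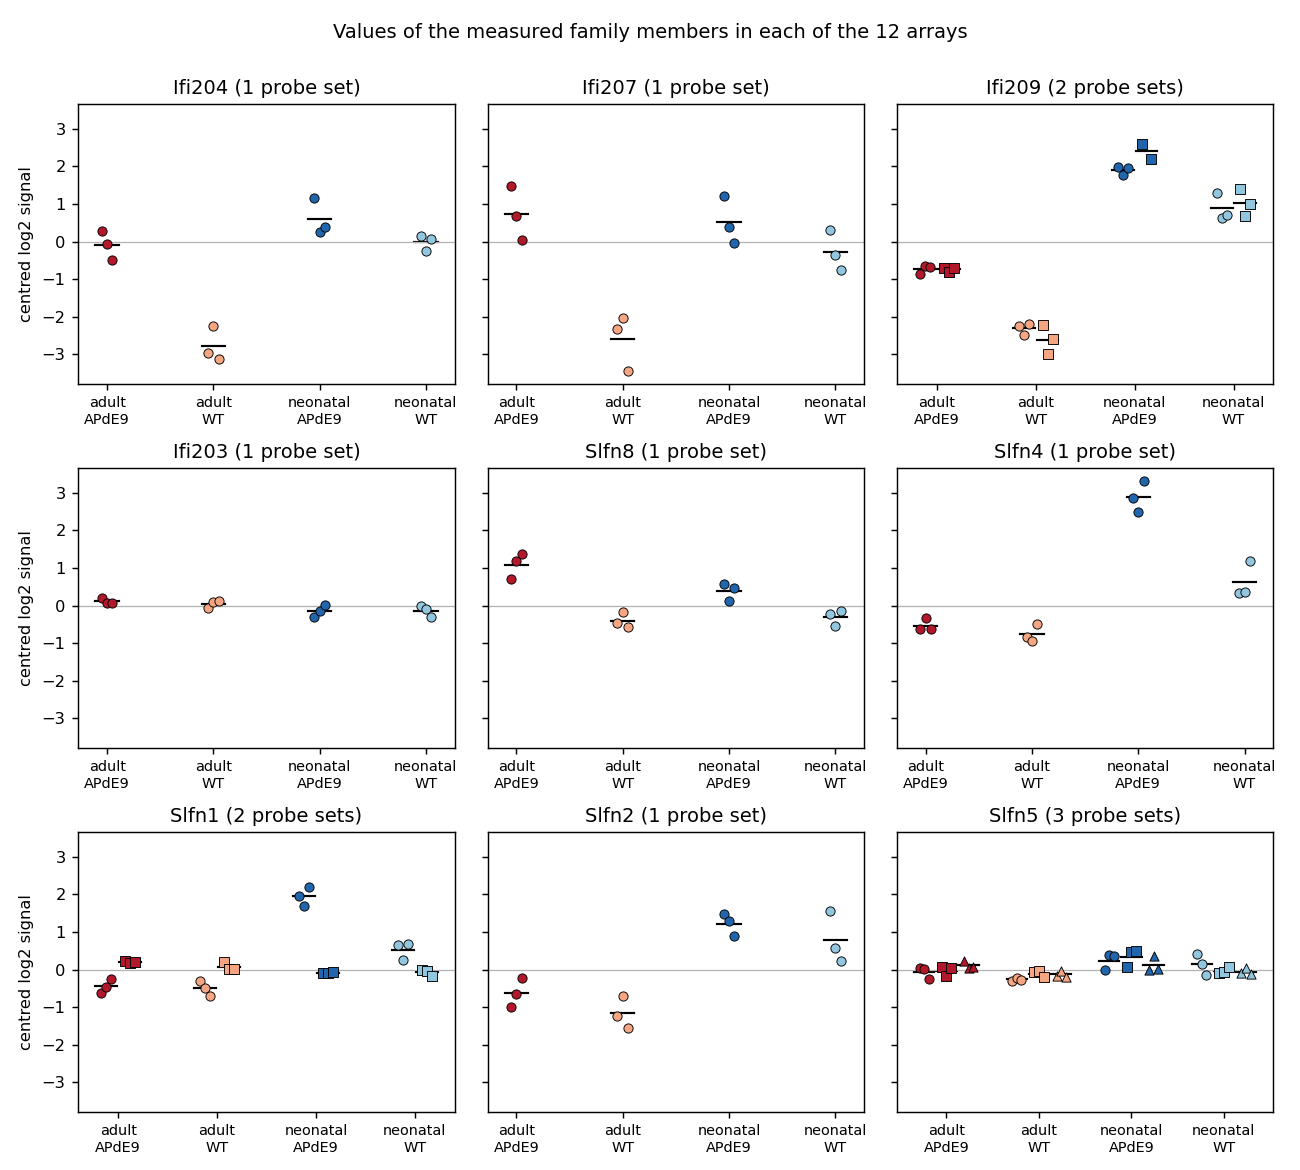
Centred log2 signal (vertical axis) of the 9 measured genes in each of the 12 arrays, by group along the horizontal axis. Each point is 1 array, short lines are group means, and circles, squares and triangles are different probe sets of a gene. Ifi204 and Ifi207 are lowest in adult cells on wild-type sections, and Slfn4 and 1 probe set of Slfn1 are highest in neonatal cells on APdE9 sections.

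In neonatal astrocytes the order of the genes was another. Slfn4 and 1 of the 2 probe sets of Slfn1 differed most between sections, while Ifi207 and Ifi204, which led in adult cells, differed by less than 1 log2 unit. Over the 13 probe sets, 7 were higher on APdE9 sections with no overlap and 0 were lower, where 6.82% of all probe sets were higher and 8.22% lower without overlap. The members' median was 0.62, with 11 of 13 above 0, against 0.01 over all probe sets, and the choice of genes again allows nothing to be read from this.

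Slfn4 was at 2.86, 2.48 and 3.31 in neonatal cells on APdE9 sections, against 0.33, 0.37 and 1.19 on wild-type sections. The groups lay more than 1 log2 unit apart and the difference was 2.25 ± 0.24 (4.76-fold), or 1.89 (3.69-fold) with quantile normalization. A probe set shared by Slfn4 and Slfn3 differed by 0.35 ± 0.14, far less than the probe set of Slfn4 alone. The probe set of Slfn1 that moved was at 1.95, 1.70 and 2.21 on APdE9 sections, against 0.65, 0.25 and 0.67 on wild-type sections, a difference of 1.43 ± 0.16 (2.70-fold). The other probe set of Slfn1 lay between -0.09 and -0.07 on APdE9 sections and between -0.17 and -0.01 on wild-type sections, a difference of -0.01 ± 0.08. The 2 probe sets of Slfn1 thus disagreed, and their mean differed by 0.71 ± 0.10, less than Ifi209 and Ifi207.

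Ifi209 was higher on APdE9 sections in neonatal cells as it was in adult cells. Its first probe set was at 1.98, 1.77 and 1.97 on APdE9 sections, against 1.30, 0.64 and 0.71 on wild-type sections, a difference of 1.02 ± 0.16 (2.03-fold). The second had values of 2.60 and 2.20 on APdE9 sections, against 1.39, 0.69 and 0.99 on wild-type sections, a difference of 1.38 ± 0.23 over the 5 arrays with a value. Its value in neonatal APdE9 replicate 2 was damaged and was left out. The groups did not overlap for either probe set.

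The other p200 genes differed less in neonatal cells. Ifi204 was at 1.17, 0.25 and 0.39 on APdE9 sections, against 0.14, -0.24 and 0.07 on wild-type sections, a difference of 0.62 ± 0.28 without overlap that fell to 0.33 when neonatal APdE9 replicate 1 was left out. Ifi207 was at 1.22, 0.40 and -0.04 on APdE9 sections, against 0.32, -0.36 and -0.76 on wild-type sections, and the groups overlapped. Its difference of 0.79 ± 0.45 was under 2 SE. With the replicate number as a block the difference was 0.79 ± 0.19, since same-numbered arrays stood in the same order in both groups. Ifi203 differed by 0.00 ± 0.11.

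Slfn8 was at 0.57, 0.13 and 0.48 in neonatal cells on APdE9 sections, against -0.23, -0.54 and -0.13 on wild-type sections, a difference of 0.69 ± 0.18 without overlap. Slfn2 was at 1.48, 1.29 and 0.89 on APdE9 sections, against 1.56, 0.58 and 0.22 on wild-type sections. The highest array of Slfn2 was one on a wild-type section, and the difference was 0.43 ± 0.32. The 3 probe sets of Slfn5, in the order given for adult cells, differed by 0.37 ± 0.12, 0.10 ± 0.15 and 0.16 ± 0.11. Only the first of these did so without overlap.

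**Figure D2:**
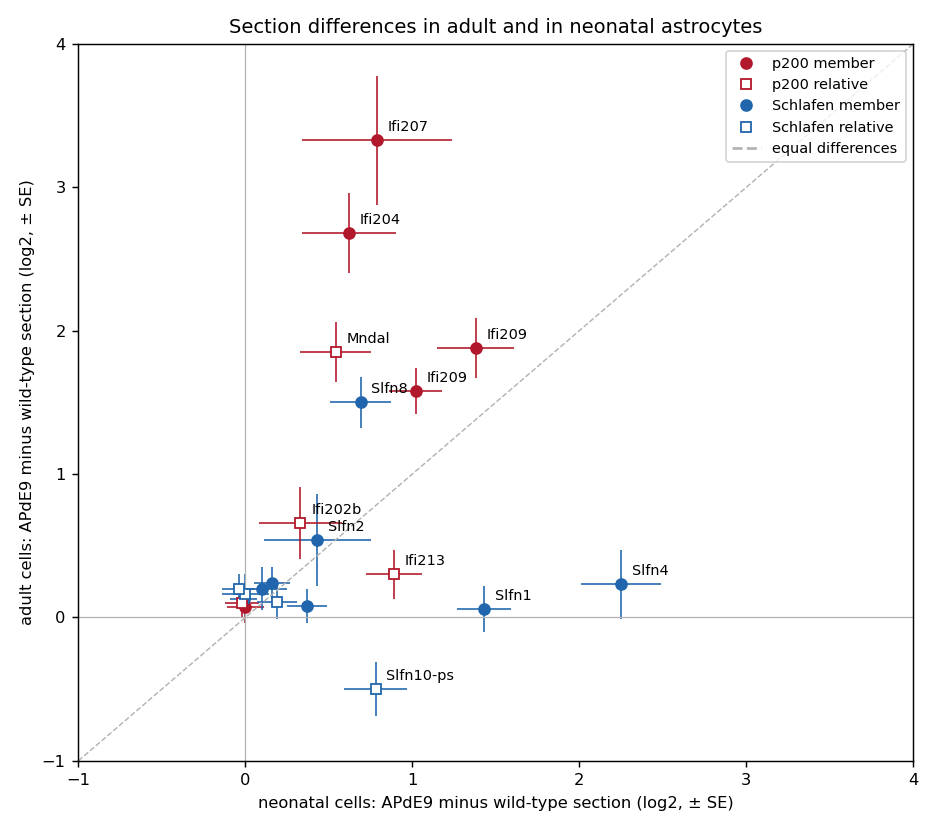
Difference between APdE9 and wild-type sections in adult cells (vertical axis) against that in neonatal cells (horizontal axis), as log2 differences with the SE of the limma fit. Filled circles are probe sets of the members and open squares are relatives, red for p200 and blue for Schlafen genes. Ifi207 and Ifi204 lie far above the dashed line of equal differences, and Slfn4 and 1 probe set of Slfn1 lie far below it.

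Set side by side, the section difference in adult cells minus that in neonatal cells was 2.54 ± 0.64 for Ifi207, 2.07 ± 0.39 for Ifi204, 0.80 ± 0.26 for Slfn8 and 0.56 ± 0.23 for the first probe set of Ifi209, while the second probe set of Ifi209 gave 0.50 ± 0.31, under 2 SE. It was -2.02 ± 0.34 for Slfn4 and -1.37 ± 0.23 for the first probe set of Slfn1 (-0.62 ± 0.14 for the mean of both). In sign, Slfn8 lay on the side of Ifi207 and Ifi204, and Slfn4 and the first probe set of Slfn1 lay on the other. The members were chosen with results of these arrays known, so nothing about the families is read from this. Quantile normalization reduced the value of Ifi209 to 0.18 and that of Ifi204 to 1.35. For the other members this difference was smaller than 2 SE.

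The share of each gene's variance over the arrays that went with age, with the section or with both varied across the members. For Slfn8 the section took 74.2% and age 5.27%, and for Ifi207 they took 52.0% and 13.8%. For Ifi209 the section took 16.4% and age 81.7%, and for Slfn2 5.36% and 81.0%. Ifi204 lay between them, with 37.7% for the section and 41.5% for age. Of all 9 genes Ifi203 had the largest share within groups, 46.0%.

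Most members had lower values in adult than in neonatal cells. On wild-type sections 8 of the 13 probe sets were lower in adult cells without overlap and 1 was higher, where 16.6% and 20.6% of all probe sets were. On APdE9 sections 6 were lower and 3 higher without overlap, where 12.8% and 18.0% were. The first probe set of Ifi209 was lower in adult cells, with differences of -3.19 ± 0.16 on wild-type sections and -2.63 ± 0.16 on APdE9 sections. Slfn4 was lower, with differences of -1.39 ± 0.24 on wild-type sections and -3.41 ± 0.24 on APdE9 sections. Slfn2 was lower too, with differences of -1.95 ± 0.32 on wild-type sections and -1.84 ± 0.32 on APdE9 sections. The probe sets of Slfn1 ran in opposite directions. The first differed by -1.02 ± 0.16 on wild-type sections and -2.39 ± 0.16 on APdE9 sections. The second differed by 0.14 ± 0.08 and 0.28 ± 0.08.

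The p200 genes that led in adult cells depended on the section in this comparison. Ifi204 differed between adult and neonatal cells by -2.76 ± 0.28 on wild-type sections and by -0.70 ± 0.28 on APdE9 sections, where the arrays overlapped. Ifi207 differed by -2.33 ± 0.45 on wild-type sections and by 0.21 ± 0.45 on APdE9 sections. On APdE9 sections, then, the arrays of Ifi207 from adult cells lay among those from neonatal cells. Slfn8 differed by -0.11 ± 0.18 on wild-type sections and was higher in adult cells on APdE9 sections by 0.69 ± 0.18. Because these comparisons share groups with the section comparisons, their values are not independent of them.

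Microglia and macrophages express many of these genes, and their markers moved with both age and section. The mean of 19 microglia and macrophage markers lay between -1.59 and -1.51 in adult cells on APdE9 sections and between -2.26 and -2.03 in adult cells on wild-type sections. In neonatal cells it lay between 1.97 and 2.12 on APdE9 sections and between 1.40 and 1.99 on wild-type sections. Of the 19, 18 were lower in adult than in neonatal cells on each section by limma (adjusted p under 0.05). On wild-type sections 1 was called higher and on APdE9 sections 0. The median log2 differences were -3.77 on wild-type and -3.63 on APdE9 sections. Of all genes 15.2% and 11.9% were called lower. Of the 12 astrocyte markers, 9 were called lower and 2 higher with age on wild-type sections, with a median of -0.94. On APdE9 sections 7 were called lower and 1 higher, with a median of -0.86. By section, 5 of these 12 were called higher and 3 lower on APdE9 sections in adult cells. In neonatal cells 0 were called higher and 6 lower. The part of either marker list in the differences of the p200 and Schlafen genes was not tested.

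Between sections, 8.26% of all genes were called higher and 9.40% lower in adult cells, and 1.21% and 2.55% in neonatal cells. Of the 19 microglia and macrophage markers, 6 were called higher and 1 lower in adult cells on APdE9 sections. In neonatal cells 3 were called higher. The count in adult cells was 3 without adult wild-type replicate 2. The count in neonatal cells was 6 with the replicate block. It was 7 when neonatal wild-type replicate 1 was left out and 0 when replicate 2 was. Leaving out replicate 3 of that group, or any 1 of the 3 neonatal APdE9 arrays, gave 1. The median difference of the list was 0.39 in adult and 0.38 in neonatal cells. Its differences ran from -0.85 to 3.53 in adult cells and from -0.04 to 1.11 in neonatal cells. The test of adult against neonatal section differences called 2 of these markers higher and 1 lower, where 5.19% and 4.88% of all genes were. The values in that test ran from -0.97 to 3.25. Without 1 array each of these counts was 1 or 2. Of 7 neutrophil markers 2 were called higher and 0 lower in adult cells, and 1 higher and 0 lower in neonatal cells. In some fits without 1 array these higher counts fell to 1 and 0. The mean of the 7 lay between 0.10 and 0.14 on APdE9 and between -0.29 and -0.15 on wild-type sections in adult cells. In neonatal cells it lay between 0.10 and 0.13 on APdE9 and between -0.17 and 0.03 on wild-type sections. Of 8 T-cell markers 1 was called between sections at either age, the surface protein gene Thy1, which neurons also express and which fell by 1.88 in adult cells (limma, adjusted p = 4.37e-06) and by 0.76 in neonatal cells (limma, adjusted p = 0.0146). The neonatal call was lost without neonatal APdE9 replicate 1 or 2 or neonatal wild-type replicate 2 or 3. Of 7 oligodendrocyte markers 4 were called higher and 0 lower in adult cells, and their mean lay between -0.29 and -0.17 on APdE9 and between -0.81 and -0.76 on wild-type sections. Of 6 fibroblast markers 1 was called higher and 3 lower in adult cells, and their mean lay between 0.09 and 0.44 on APdE9 and between 0.77 and 1.0 on wild-type sections. In neonatal cells the ranges of both means overlapped between sections. There 1 oligodendrocyte marker was called higher and 2 lower, and 2 fibroblast markers higher and 1 lower. In some fits without 1 array the counts of 2 fell to 1 and the lower fibroblast count to 0. Of 8 neuron markers 2 were called lower in adult cells, with means between -0.14 and -0.04 on APdE9 and between 0.11 and 0.19 on wild-type sections. That count was 1 without adult APdE9 replicate 1 or 2 or adult wild-type replicate 2 or 3. The part of these lists was not tested either.

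Of the relatives listed, 8 were measured by single-gene probe sets, and their p-values are given. Slfnl1 lies on chromosome 4, and the others lie in the clusters of the members. Slfn5os, a noncoding RNA gene of the Schlafen cluster, was measured but was not on the list. Relatives and lists were chosen with earlier results of these data known, so their p-values are not free of that choice. Mndal, a p200 gene that lies next to Ifi204 among the measured genes, rose in adult cells on APdE9 sections. It was at 1.69, 1.65 and 1.38 on APdE9 sections, against -0.55, 0.10 and -0.38 on wild-type sections, a log2 difference of 1.85 ± 0.21 (limma, adjusted p = 8.36e-05). In neonatal cells the difference was 0.54 ± 0.21 (limma, adjusted p = 0.243), and the adult difference was larger by 1.31 ± 0.30 (limma, adjusted p = 0.017). On APdE9 sections Mndal was higher in adult than in neonatal cells by 1.39 ± 0.21 (limma, adjusted p = 0.000388).

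Ifi213, a pyrin-domain relative, rose in neonatal cells instead. It was at 0.81, 0.96 and 1.5 on APdE9 sections, against 0.27, 0.04 and 0.30 on wild-type sections, a difference of 0.89 ± 0.17 (limma, adjusted p = 0.0132). The call was lost without neonatal wild-type replicate 2 (adjusted p = 0.075) and with only the 6 neonatal arrays in the fit (adjusted p = 0.0575). In adult cells Ifi213 differed by 0.30 ± 0.17 (limma, adjusted p = 0.26), and the test of adult against neonatal difference gave -0.59 ± 0.24 (limma, adjusted p = 0.16). Ifi213 fell with age on both sections, by 0.74 on wild-type sections (limma, adjusted p = 0.00482) and by 1.33 on APdE9 sections (limma, adjusted p = 8.2e-05).

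Aim2, the sensor of cytosolic DNA that starts an inflammasome, was between -0.14 and 0.13 in adult cells on APdE9 sections and between -0.20 and -0.03 on wild-type sections. Its differences were 0.10 ± 0.10 in adult cells and -0.02 ± 0.10 in neonatal cells (limma, adjusted p = 0.529 and 0.975). Ifi202b, which lacks a pyrin domain and opposes Aim2, was at 1.18, 0.36 and -0.10 in adult cells on APdE9 sections, against 0.04, -0.33 and -0.25 on wild-type sections. Its groups overlapped and the difference of 0.66 ± 0.25 did not pass (limma, adjusted p = 0.0955). Without adult APdE9 replicate 3 it was 0.95 and passed (limma, adjusted p = 0.012).

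Slfn10-ps, of the Schlafen cluster, is annotated as misc_RNA, although its symbol ends as those of pseudogenes do. It was the only listed Schlafen relative called in a section comparison. In adult cells it was at -0.64, -0.73 and -0.53 on APdE9 sections, against -0.05, 0.05 and -0.39 on wild-type sections, a difference of -0.50 ± 0.19 (limma, adjusted p = 0.0863). In neonatal cells it was at 0.74, 0.97 and 0.98 on APdE9 sections, against 0.08, -0.30 and 0.57 on wild-type sections, a difference of 0.78 ± 0.19 (limma, adjusted p = 0.0381). These differences ran in opposite directions and the difference between them was -1.28 ± 0.26 (limma, adjusted p = 0.00889), a call kept in each of 20 alternatives. The neonatal call alone was lost in 10 of 21 alternatives, among them each fit that left out 1 array of neonatal APdE9 replicate 1, 2 or 3 (adjusted p = 0.0686, 0.121 and 0.109), of neonatal wild-type replicate 1 or 2 (0.0793 and 0.153), of adult wild-type replicate 1 or 2 (0.0529 and 0.0512) or of adult APdE9 replicate 1 or 2 (0.0505 and 0.0572). On APdE9 sections Slfn10-ps was lower in adult than in neonatal cells, with a difference of -1.53 ± 0.19 (limma, adjusted p = 5.49e-05). Slfn3, Slfn9 and Slfnl1 had section differences between -0.04 and 0.20 over both ages, and none was called.

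In the p200 cluster Ifi213, Ifi209, Ifi207, Ifi204 and Mndal follow each other among the measured genes. Their adult differences were 0.30, 1.58, 3.33, 2.68 and 1.85. Aim2, which lies before this run, differed by 0.10, and Ifi203 and Ifi202b, after it, by 0.07 and 0.66. Of the 5 measured genes on each side of the p200 cluster, 1 of 10 was called between sections in adult cells, the actin nucleator gene Fmn2 (0.54 ± 0.10, limma, adjusted p = 0.00196), and 0 of 10 in neonatal cells (1 of 10 at an unadjusted p under 0.05). In the Schlafen cluster Slfn8 and Slfn4 lie at different places, with Slfn10-ps, Slfn2 and Slfn1 between them. Of the 10 genes flanking the Schlafen cluster, Unc45b, a myosin chaperone gene, was called higher in adult cells (0.94 ± 0.24, limma, adjusted p = 0.0177). Taf15, an RNA-binding protein gene, was called lower (-0.75 ± 0.16, limma, adjusted p = 0.00641), and 0 of 10 were called in neonatal cells (1 of 10 at an unadjusted p under 0.05). The flanking genes were chosen by position alone, after the members' values had been seen. Among all genes 8.26% were called higher and 9.40% lower in adult cells, and 1.21% and 2.55% in neonatal cells.

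Other genes of the interferon pathway were counted from lists that hold none of the members. Of 10 interferon genes measured (the ligands), 0 were called between sections at either age by limma. At an unadjusted p under 0.05 there were 2 in adult cells and 1 in neonatal cells. Their differences ran from -0.22 to 0.30 in adult cells and from -0.21 to 0.30 in neonatal cells. The gene of interferon beta, Ifnb1, named here after its values were seen, differed by 0.09 ± 0.18 in adult cells and 0.13 ± 0.18 in neonatal cells. A probe set near its median on all arrays can mean a steady level or no transcript, which centred values cannot tell apart.

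Of 16 receptor and signalling genes, 2 were called higher and 2 lower in adult cells on APdE9 sections. Usp18, a protease that damps interferon signalling and is itself induced by it, rose by 1.58 ± 0.20 (limma, adjusted p = 0.000199), and Irf9, part of the factor that binds the response element, by 0.70 ± 0.13 (limma, adjusted p = 0.00218). The receptor gene Ifnar2 fell by 0.46 (limma, adjusted p = 0.00669). The fall of Socs3, an inhibitor of cytokine signalling, was -0.89 ± 0.28 (limma, adjusted p = 0.0498) and lost its call in 9 of 21 alternatives. It did so without adult APdE9 replicate 1 or 2, adult wild-type replicate 1, 2 or 3, neonatal APdE9 replicate 1 or neonatal wild-type replicate 3, with adjusted p-values of up to 0.191. In neonatal cells limma called 0 of the 16, and 2 had an unadjusted p under 0.05.

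Irf7, the factor that amplifies the interferon response, was the 1 called member of 7 interferon regulatory factors in adult cells, and it rose by 3.06 ± 0.17 (limma, adjusted p = 2.22e-07), a size like that of Ifi207. In neonatal cells Irf7 differed by -0.09 ± 0.17 (limma, adjusted p = 0.921). There Irf8, a factor of microglia and other myeloid cells, was called instead, at 0.70 ± 0.15 (limma, adjusted p = 0.0246). The call of Irf8 was lost in 5 of 21 alternatives, among them the fits without neonatal wild-type replicate 2 (adjusted p = 0.117), neonatal APdE9 replicate 1 (adjusted p = 0.0742) and neonatal APdE9 replicate 3 (adjusted p = 0.0855).

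Of 15 genes for sensing nucleic acids, 6 were called higher and 3 lower in adult cells on APdE9 sections. The RNA sensor Ifih1 rose by 1.00 ± 0.16 (limma, adjusted p = 0.000888), the RNA receptor Tlr3 by 0.82 ± 0.18 (limma, adjusted p = 0.00636) and Dhx58, a regulator of RNA sensing, by 0.80 ± 0.10 (limma, adjusted p = 0.000114). Sting1, the adaptor through which DNA sensors such as Ifi204 can signal, fell by 0.75 (limma, adjusted p = 0.00297). In neonatal cells 2 of the 15 were called higher: Pycard, the inflammasome adaptor that binds pyrin domains, at 0.45 ± 0.07 (limma, adjusted p = 0.00631) and Samhd1 at 0.31 ± 0.07 (limma, adjusted p = 0.0344). The call of Samhd1 was lost in 10 of 21 alternatives (adjusted p up to 0.162), among them the fits without neonatal APdE9 replicate 1, 2 or 3, neonatal wild-type replicate 2 or 3, adult APdE9 replicate 2 or adult wild-type replicate 2 or 3. The count of 2 became 1 without neonatal APdE9 replicate 1 or 3, neonatal wild-type replicate 2, adult APdE9 replicate 2 or adult wild-type replicate 2 or 3.

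The largest counts were among the antiviral genes and the interferon-inducible GTPases. Of 37 antiviral genes, 26 were called higher and 2 lower in adult cells on APdE9 sections, with a median difference of 0.68 against 0.05 over all genes. Bst2, which tethers virus particles, rose by 2.01 ± 0.18 (limma, adjusted p = 1.31e-05), and Rsad2, the enzyme viperin, by 1.99 ± 0.31 (limma, adjusted p = 0.000864). Ifit3, which binds foreign RNA in a complex with its relatives, rose by 1.73 ± 0.19 (limma, adjusted p = 6.35e-05), and Oas1a, an enzyme that answers double-stranded RNA, by 1.69 ± 0.12 (limma, adjusted p = 2.09e-06). Of 10 GTPases, which act on membranes around microbes, 8 were called higher and 0 lower, with Gbp3 highest at 1.55 ± 0.17 (limma, adjusted p = 4.2e-05). Ifi207 and Ifi204 differed by more than any gene of these lists except Irf7, which lay between them. Both were chosen with this comparison known, so nothing is read from that order.

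In neonatal cells 4 of the 37 antiviral genes were called higher and 1 lower, and 1 of the 10 GTPases higher. The 1 lower call was lost in 10 of the 12 fits that left out an array. Ifit2 rose by 0.76 ± 0.12 (limma, adjusted p = 0.00512), Phf11d by 0.82 ± 0.15 (limma, adjusted p = 0.0108) and the GTPase Gbp2 by 0.70 ± 0.13 (limma, adjusted p = 0.0117). Leaving out neonatal wild-type replicate 2 gave an adjusted p of 0.0636 for Phf11d and 0.0506 for Gbp2, an antiviral count of 1 higher and a GTPase count of 0. The antiviral count was 2 without neonatal wild-type replicate 3 or neonatal APdE9 replicate 1, and the GTPase count was 2 without the second of these. Mx1, a dynamin-like antiviral GTPase, was at 1.22 ± 0.26 (limma, adjusted p = 0.0215) and was no longer called when any of 4 arrays was left out: neonatal wild-type replicate 2 (adjusted p = 0.0966), neonatal wild-type replicate 3 (0.05), neonatal APdE9 replicate 1 (0.09) or neonatal APdE9 replicate 3 (0.0757). Slfn4, at 2.25, was above each called gene of these lists in neonatal cells. The mean of both probe sets of Slfn1, at 0.71, was not. The members were chosen with results of these arrays known, so nothing is read from this order.

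The test of adult against neonatal section differences called 14 of the 37 antiviral genes higher and 0 lower, and 2 of the 10 GTPases higher, where 5.19% of all genes were called higher and 4.88% lower. The GTPase count was 5 without adult wild-type replicate 2. The larger adult difference seen in Ifi207 and Ifi204 was thus also found in antiviral genes. The counts of 0 lower did not hold in every fit. An antiviral gene was called lower without neonatal wild-type replicate 1 (Trim25, adjusted p = 0.0438) or 3 (Ifitm1, 0.0453), neonatal APdE9 replicate 2 (Mx1, 0.0416) or adult APdE9 replicate 1 (Isg20, 0.0166). The GTPase gene Gbp8 was called lower without adult wild-type replicate 1 (0.0352). These are named because the calls changed, after their values were seen.

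**Figure D3:**
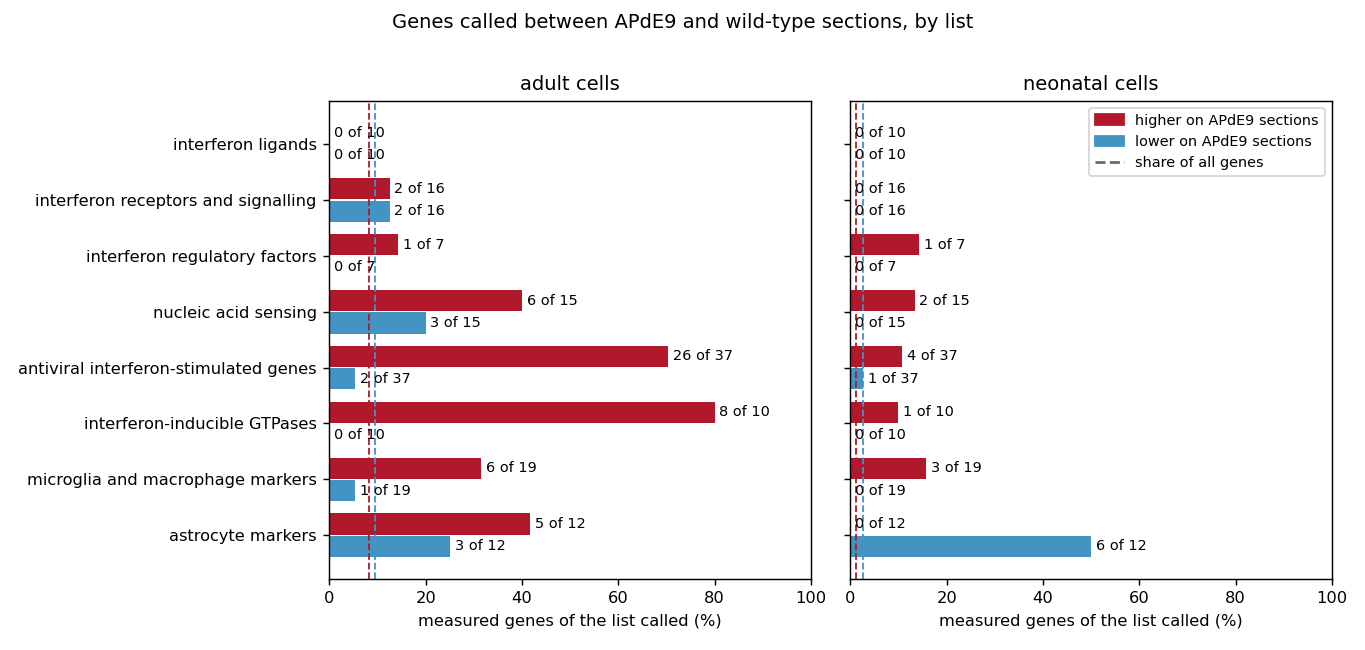
Share of the measured genes of each list that limma called higher (red) or lower (blue) on APdE9 than on wild-type sections (horizontal axis, percent), in adult cells on the left and neonatal cells on the right. The counts stand beside the bars and dashed lines mark the share of all genes called. In adult cells 8 of 10 GTPases and 26 of 37 antiviral genes were called higher, and in neonatal cells 1 of 10 and 4 of 37.

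With age the same lists moved as most of the members did. On wild-type sections 28 of 37 antiviral genes and 8 of 10 GTPases were called lower in adult than in neonatal cells, and 1 of each list higher, where 15.2% of all genes were called lower and 14.9% higher. Without neonatal wild-type replicate 1 or adult wild-type replicate 2 no gene of either list was called higher. On APdE9 sections 17 and 6 were called lower and 0 higher, where 11.9% of all genes were called lower and 11.7% higher. The GTPase count there was 3 without neonatal APdE9 replicate 2 or 3 or adult APdE9 replicate 1 or 2. Irf7 was lower in adult cells on wild-type sections, with a difference of -3.64 ± 0.17 (limma, adjusted p = 6.41e-09). On APdE9 sections the difference was -0.50 ± 0.17 (limma, adjusted p = 0.0486), a call lost in 12 of 21 alternatives, among them each fit that left out 1 array other than adult wild-type replicate 2 or 3.

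Within the families, genes varied together in different ways. Over the 12 arrays Ifi204 and Ifi207 correlated at 0.93 (Pearson), and still at 0.80 after each group's mean was removed. Slfn1, as the mean of its probe sets, and Slfn4 correlated at 0.97 over the arrays, and at 0.24 after the group means were removed. Slfn8 correlated with Slfn4 at 0.09 and with Ifi207 at 0.67. These are descriptions over 12 arrays in which genes share the array and the pool.

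The deviations of Ifi207 from its group means followed the replicate number. In adult cells on APdE9 sections and in neonatal cells on both sections, replicate 1 was highest and replicate 3 lowest, and in adult cells on wild-type sections replicate 3 was lowest too. The labels number the arrays of each group as biological replicates and do not say whether equal numbers pair arrays across groups. With the replicate number as a block the adult section difference of Ifi207 was 3.33 ± 0.19.

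The 2 genes outside the families whose values ran most like each member over the 12 arrays were found by Pearson correlation, with each gene as the mean of its probe sets. For Ifi204 they were Serinc5 (0.988) and Qpct (0.982), and for Ifi207 Atp6v0b (0.980) and Lrrfip2 (0.978). Cxcl16, a chemokine gene, ran most like Ifi209 (0.994), followed by Gramd1b (0.988). Col23a1, a collagen gene, was first for both Slfn4 (0.991) and Slfn1 (0.969), with Cd300lf (0.962) and Prss46 (0.968) next. For Slfn2 they were Parp14 (0.971) and the proton channel gene Hvcn1 (0.970), and for Slfn8 Ociad2 (0.945) and Gas7 (0.934). Slfn5 was most like Fcrl1 (0.908) and Hsd17b6 (0.901), and Ifi203 most like Cox8b (0.900) and Bche (0.898). These values are over 12 arrays in 4 groups and are given without a test.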

How the data were processed

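RMA made the signals, per the submitters' processing notes, with no version named. The authors' values for 8 of the 12 arrays were deposited on what is taken as a log2 scale; the base and the direction of the signs are not given in the sources used here. The other 4 deposited columns hold the same kind of value, but were recorded as a score because of 6 damaged entries, whole numbers above 100 in size. These were set to missing and the rest used as log2. The median of each of 45095 complete probe sets over the 12 arrays was 0 (within 1e-06), so levels had been removed and no depth or background could be computed; the number of arrays limits the precision.

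Of 45101 probe sets 64 controls were left out. In the supplied annotation 34945 of the rest had 1 gene, 932 several and 9160 none, and 34741 of the first matched mouse RefSeq. Gene values average the single-gene probe sets that have no damaged entry. A model with 4 group means was fitted to the 12 arrays with limma 3.58.1 (R 4.3.3, prior degrees of freedom 3.98 over probe sets, residual 8), with Benjamini-Hochberg adjustment over all probe sets or genes and a threshold of 0.05. The script was tested on simulated data. Figures used matplotlib 3.10.9.

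The members and lists were chosen with earlier results of these data known. Named beside the members are all measured relatives on the lists and the 2 genes most like each member. So are up to 4 called genes of each list with the largest difference in a comparison. Roles are background. Whether equal replicate numbers pair arrays was checked from how their deviations from group means correlate. All pairs passed 0.1 in the neonatal section comparison (0.239, 0.183 and 0.477) and in the age comparison on APdE9 sections (0.460, 0.266 and 0.503), and not for section in adult cells (0.287, -0.106 and 0.447) or age on wild-type sections (0.380, 0.024 and 0.383). The alternatives tried were array weights, the replicate block, quantile normalization, centring on array medians, only the arrays compared, robust variances, a filter dropping 40% of probe sets by SD, the probe set with the highest SD, the damaged decimal points restored, and each array left out in turn. Ifi204 and Slfn10-ps had no promoter window in the table. Protein sequences were not used here.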

Additional observations from a re-analysis of the deposited data

Results flagged for a closer look

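For the genes below the section difference in adult cells minus that in neonatal cells passed the test (limma, Benjamini-Hochberg over all genes). Slfn10-ps had -1.28 (adjusted p = 0.00889), with the adult arrays lower and the neonatal arrays higher on APdE9 sections and no overlap at either age; these opposite directions were not tested beyond that difference. Mndal had 1.31 (adjusted p = 0.017).

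Irf7 had 3.14 (adjusted p = 1.04e-05), Bst2 1.88 (0.00081), Oasl2 1.51 (0.0012), Ifit3 1.42 (0.00628) and Oas1a 1.32 (0.000529). Gbp3 had 1.30 (0.0043) and Igtp 1.09 (0.00526). Samhd1 had -0.76 (0.000688) and Cgas, the enzyme that senses cytosolic DNA upstream of Sting1, -0.61 (0.00675). These calls held in each of 20 alternatives.

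5 calls did not hold in all of them. Usp18 had 1.12 (0.0291), lost in 9 of 20 alternatives with adjusted p-values up to 0.0679 (without any 1 of adult APdE9 replicates 1, 2 and 3, adult wild-type replicates 1 and 3, neonatal APdE9 replicates 2 and 3 and neonatal wild-type replicates 2 and 3). Ifih1 had 0.91 (0.0232), lost without neonatal APdE9 replicate 2 (0.0605) or adult APdE9 replicate 3 (0.0518). Sting1 had -0.72 (0.0423), lost in 10 (up to 0.103): with quantile normalization and without adult APdE9 replicate 1 or 2, adult wild-type replicate 2 or 3, neonatal APdE9 replicate 1, 2 or 3 or neonatal wild-type replicate 1 or 2. Ifngr2, a receptor gene for interferon gamma, had -1.14 (0.0394), lost in 8 (up to 0.102): without any 1 of the adult arrays on either section, or neonatal wild-type replicate 2 or 3. Ifnar2 had -0.57 (0.0244), lost in 5 (up to 0.0681): without adult APdE9 replicate 1 or 2, adult wild-type replicate 2, neonatal APdE9 replicate 1 or neonatal wild-type replicate 2.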

How the results depend on the processing

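The median difference over the 9 genes stayed within the spread between replicates in 97 of 104 alternatives. In adult cells on APdE9 against wild-type sections it was 0.54, or 1.02 with the SD filter, which dropped Ifi203, and 0.34 to 0.77 without 1 array. In neonatal cells it was 0.69, and 0.44 to 0.79 without 1 array; their difference was 0.11, and 0.01 to 0.39. For age on wild-type sections it was -1.39, or -1.67 with the SD filter, and -1.54 to -1.11 without 1 array. For age on APdE9 sections it was -0.70, or -1.27 with the filter, and -0.88 to -0.41. No median changed sign, although the difference of Slfn2 between the section effects turned from 0.11 to -0.09 with quantile normalization. With the replicate block these medians were the same, since the design is balanced.

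Of the 102 pathway genes and relatives 11 were called in neonatal cells, 25 with array weights, 6 with only the arrays compared and 2 to 11 without 1 array, lowest without neonatal wild-type replicate 2. The replicate block gave 14 there, and 53, 34, 60 and 50 for section in adult cells, the difference, age on wild-type and age on APdE9 sections, against 50, 26, 60 and 44 without it. Without 1 array these ran from 42 to 50, 19 to 33, 54 to 61 and 35 to 46. The block added calls in adult cells for Ifi202b (0.66, adjusted p = 0.0124) and Irf1 (-1.0, 0.00459), and in the difference for Gbp8 (-1.03, 0.0213), Ifitm1 (-0.71, 0.00949) and Isg20 (-0.71, 0.0398). Array weights called these last 3 lower too, with Mx1 (0.043) and Trim25 (0.0197). The cause of these changes was not tested. Signal over background could not be computed from centred values.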
